A study of Arabidopsis thaliana with 42 samples.

Results

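The chloroplast-encoded genes were taken as the 88 loci of the count table whose identifier starts with ATCG, of 27667 loci in all. Their counts came from 30 rRNA-depleted RNA-seq libraries of whole Arabidopsis thaliana seedlings, 5 days old and of the Col-0 ecotype. Of these libraries, 15 carried the Col-0 wild-type genotype and 15 the genotype label rh6812, a mutant in DHH1/DDX6-like RNA helicases. In both genotypes the agent was cordycepin, an adenosine analogue that ends RNA chains, sampled at 0, 15, 30, 60 and 120 min with 3 replicates per group. No source used here states the alleles, the dose or whether seedlings were pooled. All 88 loci passed the filter on low counts, and the lowest count of any of them in any library was 67.

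The chloroplast genome encodes core subunits of the photosystems and other photosynthetic complexes, ribosomal proteins, RNA polymerase subunits and a protease subunit. Its genes are read by a bacterial-type polymerase, built from plastid-encoded subunits and guided by nuclear-encoded sigma factors, and by phage-type polymerases encoded in the nucleus. Many plastid transcripts are cut from longer precursors, and their ends are trimmed and guarded by nuclear-encoded ribonucleases and RNA-binding proteins. Plastid RNAs mostly lack the long poly(A) tails of nuclear mRNAs.

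Neither the count table nor the gene names table pairs ATCG identifiers with gene symbols, so a name is given for 7 of the 88 loci. ATCG00020 is psbA, which encodes the D1 reaction centre protein of photosystem II. The other 6 are named in RefSeq notes on related nuclear genes. These are ATCG00670, the plastid-encoded CLP P subunit of the Clp protease, and the ribosomal proteins S11 (ATCG00750), L20 (ATCG00660) and L2 (ATCG01310). ATCG00530 is noted as a CemA-like proton extrusion protein and ATCG00430 as photosystem II reaction center protein G. The name of ATCG00430 rests on that note alone and was not checked, so its values are not read as a photosystem II result. Loci with no name are given by identifier, and ribosomal protein L2 has a near-identical copy in the plastid genome, so its reads may have been split between copies. Other loci may be copies of each other as well, and counts of loci below take each identifier on its own.

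Library totals ran from 11463206 to 22251739 counts. Levels below are CPM (counts scaled to library size) scaled by TMM factors, which set the bulk of genes level between libraries, and differences are log2 values from edgeR's quasi-likelihood test with p-values adjusted over all 21486 genes tested (threshold 0.05, two-sided). The helicase gene RH8 (AT4G00660) ran from 2.54 to 3.92 CPM in the libraries labelled rh6812 and from 29.7 to 39.4 CPM in Col-0. AT3G61240 was also lower, at 6.3 to 10.5 against 15.9 to 20.5 CPM. AT2G45810, the third helicase locus, went against the label, at 131 to 435 CPM against 23.1 to 37.5 CPM in Col-0.

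The chloroplast loci gave most of the counts in the Col-0 libraries and a smaller share in those labelled rh6812. At 0 min they held 55.4%, 51.4% and 52.1% of all counts in the 3 Col-0 libraries, and 43.7%, 43.6% and 46.6% in the 3 labelled rh6812. Every Col-0 library stood above every library labelled rh6812 over the whole course, with 51.4% to 59.5% against 42.4% to 49.4%. Since the choice of loci was made with such results known, no test is given for these shares.

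psbA alone (ATCG00020) made up 29.7%, 25% and 26.6% of all counts in the Col-0 libraries at 0 min. In the libraries labelled rh6812 it made up 23.2%, 24.0% and 26.9%, and the ranges of the genotypes overlapped. Without psbA the other 87 loci held 25.5% to 26.4% in Col-0 and 19.6% to 20.6% in libraries labelled rh6812, ranges that did not overlap. ATCG00490, singled out after its values were seen as the second most counted locus, held 12.5% to 13.9% and 11.1% to 12%. Without these 2 loci the remaining 86 held 11.9% to 13.8% in Col-0 and 7.74% to 8.63% in libraries labelled rh6812. Reads of the mitochondrial genome held between 0.964% and 1.28% of counts over all 30 libraries. At 0 min they held 0.964% to 1.03% in Col-0 and 1.11% to 1.12% in libraries labelled rh6812. That order is opposite to that of the chloroplast share, but both are shares of the same totals. A smaller chloroplast share by itself raises the mitochondrial one. On the TMM scale the mitochondrial loci had a median log2 difference of -0.20 at 0 min, with 28 lower in libraries labelled rh6812 and 11 higher. The mean mitochondrial share went from 1.01% at 0 min to 1.2% at 120 min in Col-0, and from 1.12% to 1.23% in libraries labelled rh6812.

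**Figure D1:**
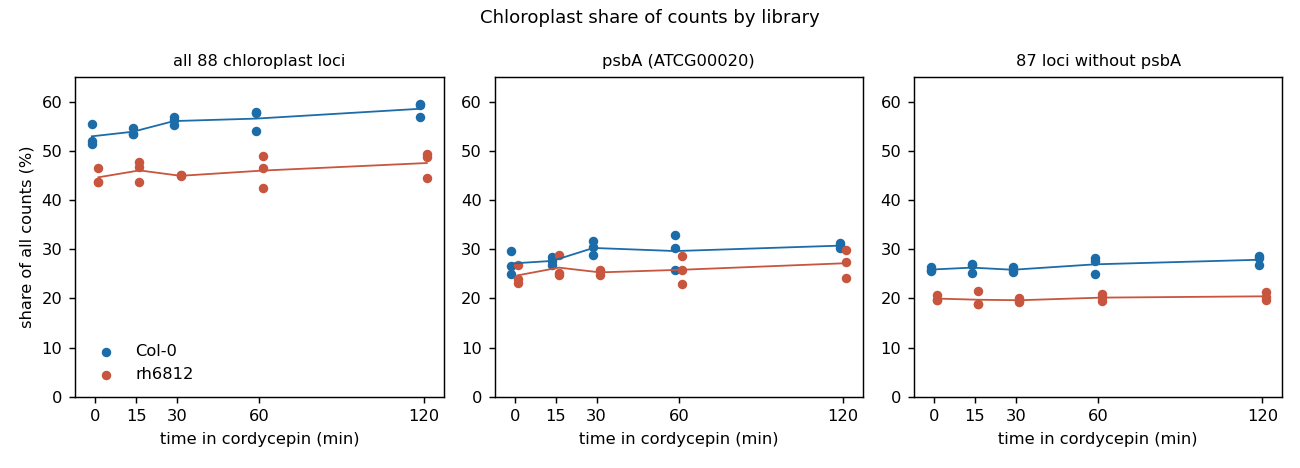
Share of all counts (%, vertical axis) against time in cordycepin (min, horizontal axis) for all 88 chloroplast loci, for psbA and for the 87 loci without psbA, with a point per library and a line through the mean of 3 replicates (Col-0 blue, libraries labelled rh6812 red). The genotypes are apart at every time in the left and right panels (51.4% to 59.5% against 42.4% to 49.4% on the left) and overlap for psbA at 0 min.

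The genotypes were compared first at 0 min, before any time in cordycepin. Chloroplast transcripts were lower in the libraries labelled rh6812 across most of the genome: 69 of the 88 loci were lower, 0 were higher and 19 did not pass the test, with a median log2 difference of -0.79. Over all 21486 genes tested, 24% were called lower and 24.4% higher (48.4% in either direction), and the median was -0.02. The 113 mitochondrial loci tested had a median of -0.20, with 28 lower and 11 higher. In bulk seedlings, fewer chloroplast-rich cells and less chloroplast RNA per cell cannot be told apart. Nothing in the labels makes the replicates separate cultures, and p-values therefore reflect the spread among these libraries, which may be technical.

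ATCG00430 had 965, 945 and 890 CPM in the Col-0 libraries at 0 min and 423, 398 and 391 CPM in those labelled rh6812. The groups were far apart, with a log2 difference of -1.21 ± 0.11 (SE, n = 3 per group, edgeR adjusted p = 2.55e-09). Ribosomal protein S11 of the small ribosomal subunit (ATCG00750) stood at 337, 352 and 343 CPM against 217, 180 and 161 CPM, again without overlap. Its difference was -0.89 ± 0.17 (edgeR adjusted p = 0.000106).

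The named large-subunit ribosomal proteins, L2 and L20, were lower too. L2 (ATCG01310) had 798, 854 and 853 CPM in the Col-0 libraries, whereas those labelled rh6812 had 491, 454 and 411 CPM, a difference of -0.89 ± 0.13 (edgeR adjusted p = 1.88e-06). L20 (ATCG00660) had 127, 187 and 161 CPM against 94.6, 98.8 and 74.9 CPM, a difference of -0.83 ± 0.20 (edgeR adjusted p = 0.00175). All 3 named ribosomal protein genes were lower, by -0.89 to -0.83. The CemA-like locus ATCG00530 had 554, 1042 and 748 CPM against 427, 498 and 439 CPM, and its difference of -0.78 ± 0.41 did not pass (edgeR adjusted p = 0.117). It passed with the replicate number as a block (-0.72, adjusted p = 0.0196) and with the 6 libraries fitted alone (-0.78, adjusted p = 0.0203).

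The 2 lowest log2 differences at 0 min were -1.28 ± 0.20 for ATCG00350 and -1.27 ± 0.12 for ATCG00680. ATCG00350 had 13500, 12420 and 13240 CPM in the Col-0 libraries and 6107, 5176 and 4889 CPM in libraries labelled rh6812. ATCG00680 had 10640, 9560 and 10170 CPM against 4608, 4023 and 3962 CPM. No library of either genotype reached the other's range for these loci.

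**Figure D2:**
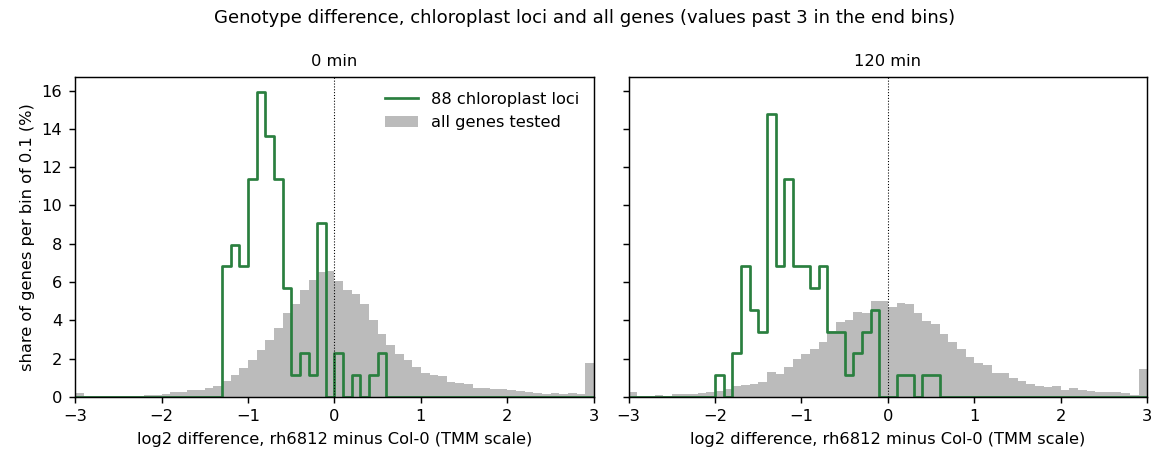
Distribution of log2 differences (libraries labelled rh6812 minus Col-0, horizontal axis) at 0 and 120 min, as the share of genes in each bin of 0.1 (%, vertical axis), for all genes tested (grey bars) and the 88 chloroplast loci (green line). The chloroplast loci lie left of the bulk, with medians of -0.79 and -1.12 against -0.02 and 0.03 for all genes.

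Not every chloroplast locus was lower. CLP P (ATCG00670) stood at 1689, 1458 and 1550 CPM in the Col-0 libraries at 0 min and at 1708, 1594 and 1705 CPM in those labelled rh6812, and these ranges overlapped. Its difference was 0.09 ± 0.10 (edgeR adjusted p = 0.476), while scaling by library size alone gave 0.32 (adjusted p = 0.00147). psbA (ATCG00020) had 325400, 231900 and 260400 CPM against 195300, 197200 and 240100 CPM. The lowest Col-0 library was below the highest one labelled rh6812, and the difference of -0.37 ± 0.16 lay at the threshold (edgeR adjusted p = 0.0502). It passed with scaling from nuclear genes only, with the replicate block and with DESeq2 (-0.38, -0.36 and -0.36, adjusted p = 0.043, 0.0455 and 0.0491), and without replicate 2 of Col-0 or replicate 3 of rh6812 at 0 min (adjusted p = 0.0243 and 0.0326). ATCG00490 was lower by -0.39 ± 0.12 (edgeR adjusted p = 0.0113), a call lost with library size alone (-0.15, adjusted p = 0.0558), without replicate 1 of Col-0 at 0 min (-0.26, adjusted p = 0.1), without replicate 2 of rh6812 at 0 min (-0.33, adjusted p = 0.0619) and with all libraries of replicate number 1 left out (-0.27, adjusted p = 0.179).

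The scale on which chloroplast loci are set matters for these directions. With library size alone in place of TMM factors, the median of all genes at 0 min moved to 0.20 and that of the chloroplast loci to -0.57, with 60 loci lower and 1 higher. On the chloroplast scale, with libraries scaled to the summed chloroplast counts without psbA, 23 loci were lower and 5 higher, with a median of -0.195. ATCG00490 alone held a mean of 13% of counts in Col-0 and 11.7% in libraries labelled rh6812 at 0 min. All chloroplast loci without psbA held 25.9% and 20%, so the chloroplast scale sets loci largely against ATCG00490. On that scale CLP P (ATCG00670) was higher by 0.70 (adjusted p = 8.47e-08), and psbA (ATCG00020) and ATCG00490 turned to 0.24 and 0.22. The ribosomal proteins S11, L2 and L20 were at -0.29, -0.29 and -0.23 and did not pass there (edgeR adjusted p = 0.0752, 0.0542 and 0.355). The chloroplast loci were thus unequal in their difference between genotypes.

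At every sampled time the same comparison was made by library, without a model. All 3 libraries labelled rh6812 were below all 3 Col-0 libraries for 73 loci at 0 min, 70 at 15 min, 77 at 30 min, 68 at 60 min and 73 at 120 min. Over all genes tested, that was so for 27.1%, 28.8%, 29.7%, 29.2% and 29.5%. The reverse order was met by 0 chloroplast loci at each time, where 26.9%, 27.6%, 27.5%, 29.7% and 32.3% of all genes met it. The median log2 difference of the 88 loci was -0.79, -0.91, -0.91, -0.86 and -1.11 at these times.

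After 120 min of cordycepin, 72 loci were lower in the libraries labelled rh6812, 0 were higher and 16 did not pass, where 26.8% of all genes were called lower and 29.8% higher (56.6% either way). The median difference was -1.12. Below -1 on the log2 scale lay 51 loci at 120 min and 19 at 0 min, against 2322 and 1401 of all 21486 genes tested. Library size alone gave 68 lower and 1 higher with a median of -0.72, and a median of 0.42 over all genes. The chloroplast scale gave 37 lower and 6 higher, with a median of -0.272.

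The lowest differences at 120 min were those of ATCG00440 and ATCG01000. ATCG00440 stood at 453, 458 and 382 CPM in the Col-0 libraries and 112, 130 and 103 CPM in libraries labelled rh6812, a difference of -1.91 ± 0.13 (edgeR adjusted p = 2.98e-12). ATCG01000 stood at 465, 539 and 394 CPM against 130, 176 and 117 CPM, a difference of -1.73 ± 0.16 (edgeR adjusted p = 1e-09). Neither locus had overlapping ranges.

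Of the named loci, ATCG00430 had 1157, 1156 and 956 CPM in Col-0 at 120 min and 344, 373 and 286 CPM in libraries labelled rh6812. Its difference was -1.71 ± 0.11 (edgeR adjusted p = 4.14e-12). The ribosomal proteins S11 (ATCG00750), L2 (ATCG01310) and L20 (ATCG00660) were lower by -1.42 ± 0.17, -1.21 ± 0.13 and -1.17 ± 0.21. L20 did not pass on the chloroplast scale (-0.33, edgeR adjusted p = 0.168). The CemA-like locus ATCG00530 passed at this time, at -1.31 ± 0.41 (edgeR adjusted p = 0.00974), but not without replicate 2 of Col-0 (-0.97, adjusted p = 0.066), without replicate 1 of rh6812 (-1.07, adjusted p = 0.0561) or with library size alone (-0.91, adjusted p = 0.0867).

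psbA (ATCG00020) reached 414300, 410000 and 365800 CPM in Col-0 at 120 min and 279600, 315900 and 215300 CPM in libraries labelled rh6812. These ranges did not overlap, and the difference was -0.55 ± 0.16 (edgeR adjusted p = 0.0036). It did not pass with library size alone (-0.18, adjusted p = 0.0866) or with all libraries of replicate number 1 left out, where it was also -0.55 with fewer libraries behind it (adjusted p = 0.0573), and turned to 0.27 on the chloroplast scale. CLP P (ATCG00670) differed by -0.13 ± 0.10 (edgeR adjusted p = 0.275), which turned to 0.25 with library size alone and 0.70 on the chloroplast scale.

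**Figure D3:**
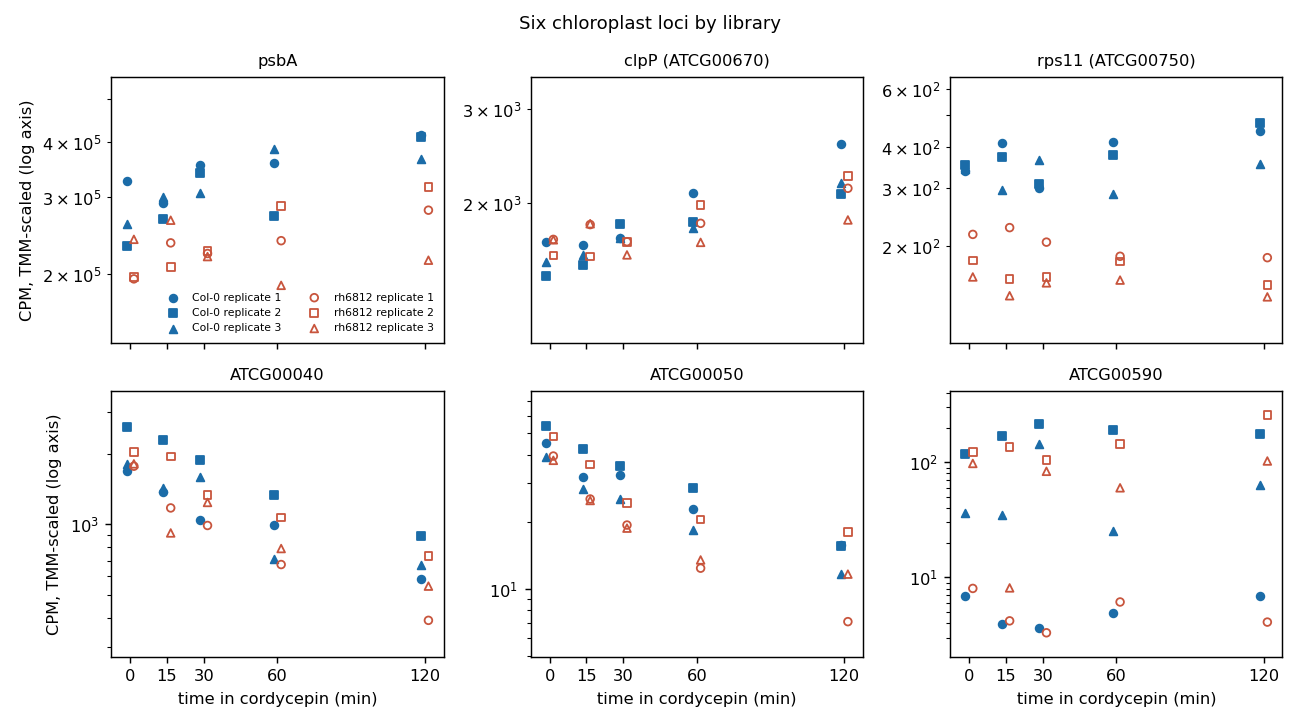
TMM-scaled CPM (log axis) of 6 chloroplast loci against time in cordycepin (min), with a symbol per library. Filled blue symbols are Col-0 and open red symbols are libraries labelled rh6812, and circle, square and triangle are replicates 1, 2 and 3. S11 is apart between genotypes, CLP P overlaps at 0 min, ATCG00040 and ATCG00050 fall in both, and ATCG00590 separates by replicate number.

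The time course was then read within each genotype. In Col-0 chloroplast transcripts mostly held or gained ground relative to the bulk of genes. From 0 to 120 min 38 loci rose, 3 fell and 47 did not pass, against 22.2% of all genes rising and 25.3% falling (47.5% in all). With the replicate number as a block, 47 rose and 6 fell. The median log2 change of the loci was 0.38 and that of all genes -0.02. Of 113 mitochondrial loci, 62 rose and 8 fell, with a median of 0.52. Without replicate 2 of the 120 min group 23 chloroplast loci rose. These rises are relative to the bulk: with library size alone the median of all genes was -0.39 and that of the chloroplast loci 0.00, and 1 locus rose and 9 fell. On the chloroplast scale 0 rose and 17 fell.

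A line through all 5 times gave the same picture in Col-0, with 45 loci rising, 5 falling and 38 not passing (23.4% and 27.3% of all genes, 50.7% in all). The median slope was 0.18 log2 per hour on the TMM scale, and 0.00 with library size alone, where that of all genes was -0.19. The gain was mostly late: the median log2 change of the loci from 0 min was 0.00 at 15 min, 0.02 at 30 min, 0.09 at 60 min and 0.38 at 120 min. With times up to 60 min alone, 13 rose and 2 fell. Leaving out replicate 3 of either genotype gave 2 falling slopes, and leaving out replicate 1 or 2 of Col-0 or replicate 1 of rh6812 gave 3. The mitochondrial loci also gained in Col-0, with 64 of 113 slopes rising, 5 falling and a median of 0.28 log2 per hour.

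psbA (ATCG00020) rose at 0.26 ± 0.06 log2 per hour in Col-0 (edgeR adjusted p = 0.00115), which did not pass with library size alone (0.08, adjusted p = 0.072). CLP P (ATCG00670) went from 1689, 1458 and 1550 CPM at 0 min to 2578, 2083 and 2178 CPM at 120 min. All its later values were above all its earlier ones, and its slope was 0.28 ± 0.04 log2 per hour (edgeR adjusted p = 1.06e-06). The 2 highest slopes among those called were 0.34 ± 0.06 for ATCG01240 and 0.33 ± 0.07 for ATCG01230, neither passing with library size alone (0.15 each, adjusted p = 0.0504 and 0.106). ATCG01240 went from 518, 544 and 543 CPM to 940, 840 and 773 CPM.

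In the libraries labelled rh6812, from 0 to 120 min, 8 loci rose, 8 fell and 72 did not pass, against 8.69% and 10.4% of all genes (19.1% in all), and the median was 0.11. Leaving out single libraries took the number that rose to between 0 and 10, with 0 without replicate 2 at 120 min, 1 and 2 without replicates 1 and 2 at 0 min, and 4 without replicate 1 at 120 min. It was 0 with the 6 libraries fitted alone and with library size alone, where 15 fell. The line through 5 times gave 14 rising and 8 falling (10.1% and 11.6% of all genes, 21.7% in all), with a median slope of 0.07 log2 per hour. Without replicate 2 it gave 1 rising and without replicate 1 it gave 9, and with library size alone 3 rising and 17 falling, so the direction of the median turned to -0.03. The 2 highest slopes among those called were 0.23 ± 0.05 for ATCG00580 and for ATCG00130. The first did not pass without replicate 2 (0.14, adjusted p = 0.084), nor the second with library size alone (0.13, adjusted p = 0.074).

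psbA (ATCG00020) had a slope of 0.15 ± 0.06 log2 per hour in the libraries labelled rh6812 (edgeR adjusted p = 0.0788). Without replicate 3 of that genotype the slope was 0.29 (adjusted p = 0.00312). CLP P (ATCG00670) went from 1708, 1594 and 1705 CPM to 2131, 2248 and 1858 CPM, with a slope of 0.16 ± 0.04 (edgeR adjusted p = 0.00433). That slope was 0.06 with library size alone (adjusted p = 0.157) and 0.11 without replicate 2 (adjusted p = 0.129).

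**Figure D4:**
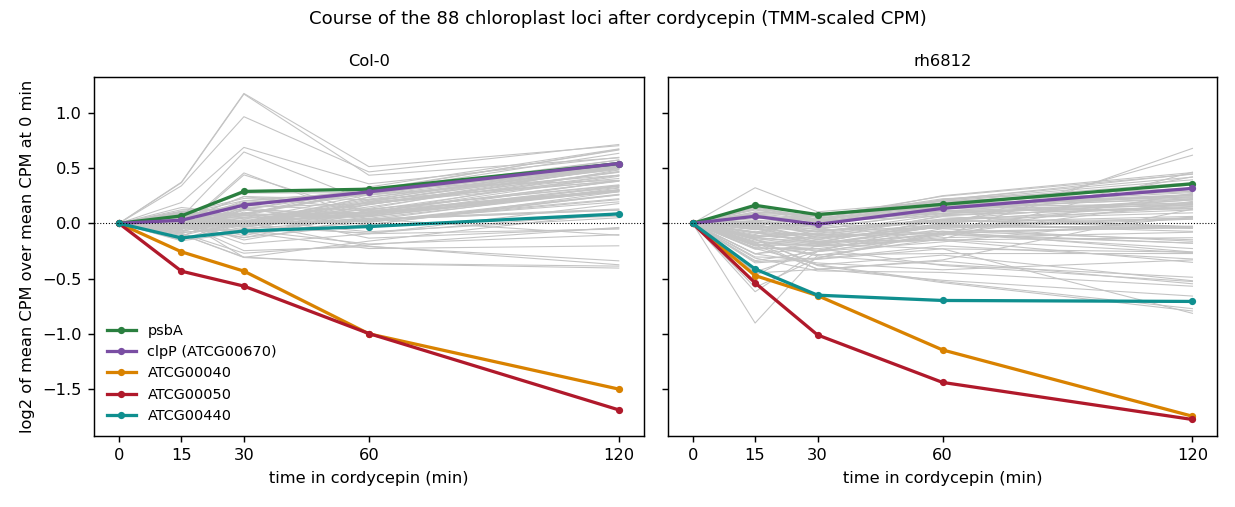
Log2 of the group mean CPM over the mean at 0 min (vertical axis, TMM scale) against time in cordycepin (min) for the 88 chloroplast loci in Col-0 and in libraries labelled rh6812, with 5 loci coloured and the others grey. ATCG00040 and ATCG00050 end at about 30% of their start in both genotypes (35.3% and 31% in Col-0, 29.8% and 29.2% in libraries labelled rh6812), while most other loci stay near or above 0 in Col-0.

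Falling slopes were called in both genotypes for 5 chloroplast loci, and ATCG00040 and ATCG00050 had the steepest. The other 3, ATCG00190, ATCG00860 and ATCG01280, named after their values were seen, had slopes of -0.17 ± 0.06, -0.19 ± 0.07 and -0.18 ± 0.07 log2 per hour in Col-0 (edgeR adjusted p = 0.0292, 0.0278 and 0.0373). In libraries labelled rh6812 their slopes were -0.39 ± 0.07, -0.38 ± 0.07 and -0.37 ± 0.07 (edgeR adjusted p = 0.000119, 0.000321 and 0.000462). ATCG00860 and ATCG01280 had nearly the same counts (3487 to 23718 and 3493 to 23837 over the libraries). Whether they are copies of 1 gene was not checked, so they may not be separate results. With RLE size factors or DESeq2, only 2 chloroplast loci had falling slopes in Col-0. ATCG00040 stood at 1688, 2588 and 1813 CPM in Col-0 at 0 min and at 587, 895 and 669 CPM at 120 min, so that 35.3% of its mean was left. In the libraries labelled rh6812 it went from 1767, 2029 and 1808 CPM to 390, 734 and 546 CPM, with 29.8% left. The values at 120 min were below all values at 0 min in each genotype. The slopes were -0.75 ± 0.13 and -0.83 ± 0.13 log2 per hour (edgeR adjusted p = 1.74e-05 and 3.22e-05).

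ATCG00050 was a much less counted locus with the same course. It went from 45.4, 54.0 and 39.2 CPM to 15.7, 15.7 and 11.6 CPM in Col-0, with 31.0% left, and from 39.5, 48.5 and 37.8 CPM to 7.12, 18 and 11.7 CPM in libraries labelled rh6812, with 29.2% left. Its slopes were -0.81 ± 0.13 and -0.86 ± 0.12 log2 per hour (edgeR adjusted p = 5.19e-06 and 1.44e-05). Neither ATCG00040 nor ATCG00050 passed between genotypes at 0 min, with differences of -0.12 ± 0.30 and -0.14 ± 0.24 (edgeR adjusted p = 0.763 and 0.66) that turned to 0.09 each with library size alone. The fall over time in both genotypes passed under every alternative tried, with slopes from -1.42 to -0.71.

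The slopes of the 88 loci in the 2 genotypes, which share no library, had a Pearson r of 0.855 across loci, and 0.743 over the 86 loci without ATCG00040 and ATCG00050. Loci are not independent replicates, and they share libraries, scaling and long precursors, so these values are a description. Most loci lay below the line of equal slopes, with 79 of 88 slope differences negative and a median of -0.14 log2 per hour. Over all 21486 genes tested, 10804 were negative, with a median of -0.001. With library size alone the median was -0.05 for the chloroplast loci and 0.09 for all genes. On the chloroplast scale these medians were -0.02 and 0.11. The excess of negative slope differences was not particular to the chloroplast. Of 113 mitochondrial loci tested, 96 had negative slope differences, with a median of -0.16.

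**Figure D5:**
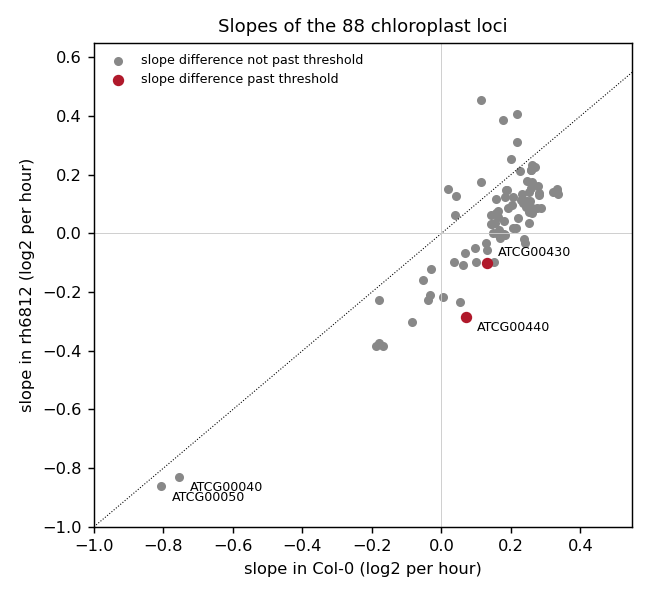
Slope over 0 to 120 min of cordycepin in libraries labelled rh6812 (log2 per hour, vertical axis) against that in Col-0 (horizontal axis) for the 88 chloroplast loci on the TMM scale, with equal slopes on the dotted line. ATCG00040 and ATCG00050 lie at the lower left, and the 2 loci whose slope difference passed the test are red.

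The test of that slope difference passed for 2 of the 88 loci, both lower in the libraries labelled rh6812, and 86 did not pass. Over all genes it passed for 4.57% lower and 9.28% higher (13.8% in all). Of 113 mitochondrial loci, 18 were lower and 0 higher. ATCG00440 stood at 447, 394 and 379 CPM at 0 min in Col-0 and at 453, 458 and 382 CPM at 120 min. In the libraries labelled rh6812 it went from 215, 179 and 168 CPM to 112, 130 and 103 CPM, all later values below all earlier ones. Its slope difference was -0.36 ± 0.09 log2 per hour (edgeR adjusted p = 0.00952). ATCG00430 went from 965, 945 and 890 to 1157, 1156 and 956 CPM in Col-0, and from 423, 398 and 391 to 344, 373 and 286 CPM in libraries labelled rh6812, with a slope difference of -0.23 ± 0.07 (edgeR adjusted p = 0.0201).

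The number of calls depended on the libraries, the fit and the scale. With the replicate number as a block 12 loci were lower, with DESeq2 6 and with RLE size factors 5, and both named loci passed in each. At an unadjusted p under 0.05 there were 18 loci lower and 0 higher. With all libraries of replicate number 1 left out, 0 passed, and ATCG00440 and ATCG00430 had adjusted p = 0.123 and 0.216. Without replicate 1 of Col-0 1 passed, without replicate 3 of Col-0 9 passed, and without replicate 2 of rh6812 5 passed. The slope difference of ATCG00430 was -0.15 with library size alone (adjusted p = 0.118).

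Replicates of a group were close for most chloroplast loci. The SD within groups on the log2 scale had a median of 0.208 over the 88 loci, and 79 loci lay between 0.096 and 0.4. The other 9 were above 0.5, and in 7 of these replicate 1 was the lowest of the 3 in at least 9 of the 10 groups, which held for 7 loci in all. ATCG00590 (SD 2.57) and ATCG00220 (SD 1.99), singled out after their values were seen, were the most extreme. Loci with smaller SDs followed the replicate number too. Replicate 2 was highest in all 10 groups for ATCG00040, ATCG00650, ATCG01010, ATCG01050, ATCG01080 and ATCG01130. For ATCG00470, ATCG00540 and ATCG00710, replicate 1 was highest in all 10. The main fit holds no term for the replicate number.

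ATCG00590 ran from 3.3 to 8.02 CPM over the 10 libraries of replicate 1, from 105 to 259 CPM over those of replicate 2 and from 8.1 to 145 CPM over those of replicate 3. ATCG00220 ran from 10.7 to 20.6, from 142 to 308 and from 18.6 to 197 CPM. Replicate 1 was lowest and replicate 2 highest in all 10 groups for both loci, in both genotypes. None of the 9 loci passed between genotypes at 0 min in the fit without the replicate number, while ATCG00530, one of them, passed with it as a block (adjusted p = 0.0196). The part of replicate number in these values was not tested further. With all libraries of replicate number 1 left out, 65 loci were lower and 0 higher between genotypes at 0 min, and 70 and 0 at 120 min.

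Nuclear genes for chloroplast gene expression were examined beside their plastid counterparts. Of 20 genes for plastid transcription (sigma factors, phage-type polymerases and polymerase-associated proteins), 11 were lower in libraries labelled rh6812 at 0 min, 1 was higher and 8 did not pass, with a median of -0.40. Over all genes, 24% were called lower and 24.4% higher. Without replicate 3 of Col-0 at 0 min, 7 of the 20 were lower. With library size alone, where the median of all genes was 0.20, 3 were lower and 3 higher, with a median of -0.18. The sigma factors SIGF (AT2G36990) and SIGA (AT1G64860), which direct the bacterial-type polymerase to promoters, were lower by -0.87 ± 0.12 and -1.13 ± 0.19 (edgeR adjusted p = 8.04e-07 and 2.11e-05). PTAC12 (AT2G34640), a polymerase-associated protein, was lower by -0.77 ± 0.16. FSD2 (AT5G51100), an iron superoxide dismutase of the plastid, was higher by 0.48 ± 0.12.

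Of 18 genes for plastid RNA processing and stability, 12 were lower, 0 were higher and 6 did not pass, with a median of -0.46. Over all genes, 24% were called lower and 24.4% higher. With library size alone, 7 of the 18 were lower and 0 higher. Relative to the summed chloroplast counts without psbA, the medians of the transcription and processing lists turned to 0.195 and 0.14. EMB2730 (AT5G02250) and RNEE/G (AT2G04270), plastid ribonucleases, were lower by -1.18 ± 0.15 and -0.65 ± 0.11. CP33 (AT3G52380), a chloroplast RNA-binding protein, was lower by -1.0 ± 0.12 (edgeR adjusted p = 1.01e-07). HCF107 (AT3G17040), which guards the end of a plastid transcript, was lower by -0.66 ± 0.13.

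Among 6 sigma factor genes, SIGF and SIGC differed in both genotype comparisons. SIGF (AT2G36990) went from 31.8, 33.1 and 37.2 CPM to 8.51, 13.1 and 11.9 CPM in Col-0, and from 18, 20.6 and 17.5 CPM to 15.5, 14.3 and 14.7 CPM in libraries labelled rh6812. At 120 min SIGF was higher by 0.42 in libraries labelled rh6812 (edgeR adjusted p = 0.0052), a call lost without replicate 1 of Col-0 at 120 min (0.25, adjusted p = 0.0708), with all libraries of replicate number 1 left out (0.22, adjusted p = 0.176) and with the 6 libraries fitted alone (0.36, adjusted p = 0.0586). SIGC (AT3G53920) was lower by -0.56 at 0 min and higher by 0.68 at 120 min (edgeR adjusted p = 0.0109 and 0.00903). The first call was lost without replicate 3 of Col-0 (-0.34, adjusted p = 0.148) and with library size alone (-0.34, adjusted p = 0.195), and the second without replicate 1 of Col-0 (0.57, adjusted p = 0.0515), without replicate 1 of rh6812 (0.53, adjusted p = 0.0653) and with all libraries of replicate number 1 left out (0.42, adjusted p = 0.201). SIGE (AT5G24120) passed in neither genotype from 0 to 120 min (edgeR adjusted p = 0.311 in Col-0 and 0.887 in libraries labelled rh6812). SIG4 (AT5G13730), singled out after its values were seen, had the lowest change of the 6 in each genotype. It fell by -2.425 in Col-0 and by -1.993 in libraries labelled rh6812 (edgeR adjusted p = 2.2e-06 and 4.17e-05).

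Markers of green tissue and of root were set beside the chloroplast loci. Over all genes at 0 min, 24% were called lower and 24.4% higher. Of 18 nuclear photosynthesis genes of green tissue, 13 were lower in libraries labelled rh6812 at 0 min, 0 were higher and 5 did not pass, and with library size alone 13 were lower and 2 higher. Their median was -0.72, and their summed level was 18350 to 20660 CPM against 25090 to 31600 CPM in Col-0. LHCA4 (AT3G47470), an antenna protein of photosystem I, was lower by -1.80 ± 0.18, and RBCS1A (AT1G67090), a small subunit of Rubisco, differed by 0.22 ± 0.13 and did not pass (edgeR adjusted p = 0.165), while it did with library size alone (0.45, adjusted p = 2.77e-05). Of 13 root markers, 5 were higher at 0 min, where 24.4% of all genes were, 1 was lower and 7 did not pass. With all libraries of replicate number 1 left out 3 were higher. The 1 lower marker, SHV2 (AT5G49270), was at -0.89 ± 0.28, a call lost without replicate 2 of Col-0 (-0.53, adjusted p = 0.141) or replicate 3 of rh6812 (-0.78, adjusted p = 0.0539). The 13 root markers had a median of 0.18 at 0 min. Their summed level, in which the most counted markers weigh most, was 2809 to 3293 CPM against 2025 to 2129 CPM. PYK10 (AT3G09260), a root beta-glucosidase, was higher by 0.55 ± 0.10. At 120 min, where the chloroplast median was -1.12, 2 root markers were higher (0 without replicate 1 of Col-0 and 1 without any of 3 other libraries) and 2 lower with a median of 0.05, and 12 green-tissue genes were lower and 1 higher with a median of -0.81. Over all genes at 120 min, 26.8% were called lower and 29.8% higher. No marker of either list was at 0. The part of tissue make-up in the chloroplast difference was not tested.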

How the data were processed

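The authors deposited raw whole-number counts per locus. The submitters' processing notes name TAIR10 as the build and TopHat2 2.0.14 and Bowtie2 2.2.5 as tools, and per the labels' protocols the 30 libraries were rRNA-depleted with a TruSeq kit. No source used here gives the counter, its strand setting or the annotation, so overlapping and antisense loci may be merged. The 12 poly(A)+ libraries hold no value for chloroplast loci.

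Counts were fitted in R 4.3.3 with edgeR 4.0.16 (TMM, filterByExpr minimum count 10 and total 15, robust quasi-likelihood test, Benjamini-Hochberg adjustment), with a mean for each of 10 groups, and with a line over time per genotype. Changes from 0 min by group use CPM plus 0.5. The scripts were tested on simulated data. DESeq2 1.42.0 was an alternative. No replicates were duplicates (chi-square per degree of freedom 43.7 to 2950 over the chloroplast loci).

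Named loci were to be chosen by size or p within functional lists. The sources pair no identifiers with names, so named loci are the 7 described, with at most 2 rising and 2 falling identifiers per comparison; other loci are said to be singled out. Nuclear genes are those with small p-values in each list. Loci and lists were chosen with earlier results of these data known. Replicates with the same number deviated together in Col-0 at 0 and 120 min (correlations 0.187, 0.232 and 0.228), so this contrast is also given with the block. The build differs from the reference held, TAIR10.1, which served for names alone.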

Additional observations from a re-analysis of the deposited data

Results flagged for a closer look

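Slopes over cordycepin that differed between genotypes, by the test of the difference itself in log2 per hour (libraries labelled rh6812 minus Col-0), included 2 chloroplast loci. ATCG00430 differed by -0.23 and ATCG00440 by -0.36, and both calls were lost with all libraries of replicate number 1 left out, while with the replicate number as a block 12 chloroplast loci passed, these 2 among them. Of the nuclear genes for plastid transcription, SIGA (AT1G64860) differed by 0.47, SIGC (AT3G53920) by 0.65, SIGF (AT2G36990) by 0.63 and the phage-type polymerase locus AT5G15700 by -0.44. HCF107 (AT3G17040) of the RNA processing list differed by 0.46. The root marker CASP1 (AT2G36100) differed by -0.23 and plastocyanin PETE1 (AT1G76100) by 0.34. With all libraries of replicate number 1 left out, the calls of SIGA, AT5G15700, CASP1 and PETE1 were lost (adjusted p = 0.069, 0.481, 0.368 and 0.153) and those of SIGF, SIGC and HCF107 were not. With times up to 60 min alone, the calls of ATCG00430, SIGC, SIGA, AT5G15700, CASP1 and PETE1 were lost (adjusted p = 0.257, 0.471, 0.265, 0.202, 0.737 and 0.302). CASP1, with adjusted p = 0.0498 in the main fit, also missed with library size alone, nuclear scaling and no filter (adjusted p = 0.266, 0.0501 and 0.0668). AT5G15700 was lost with library size alone as well (adjusted p = 0.136).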

How the results depend on the processing

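Groups of 3 replicates limit the precision, and the scale is the main choice. The TMM scale sets the bulk of genes level, so absolute RNA amounts were not measured. The difference in chloroplast share at 0 min, -8.33 percentage points, was -5.91 without psbA and -4.61 without psbA and ATCG00490.

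Counts of chloroplast loci that moved by over 1.5 times are given as higher and lower. With library size alone, 1 locus was higher at 0 and 120 min between genotypes, 1 rose and 9 fell in Col-0 from 0 to 120 min, 0 and 15 in libraries labelled rh6812, slopes gave 5 and 9 in Col-0 and 3 and 17 in rh6812, and 1 slope difference was lower. On the chloroplast scale the counts were 5 and 23 at 0 min, 6 and 37 at 120 min, 0 and 17 in Col-0, 0 and 20 in rh6812, slopes 0 and 19 and 0 and 21, and 0 slope differences. With the replicate block, 6 fell in Col-0 and 15 in rh6812, 13 slopes fell in rh6812 and 12 slope differences were lower. Of the contrasts between 2 groups, only Col-0 at 0 and 120 min had correlations of same-numbered deviations over 0.1 in all 3 pairs. Between genotypes they were 0.059, 0.255 and 0.185 at 0 min and -0.034 to 0.159 at 120 min. Within rh6812 they were 0 to 0.334. These correlations were taken over all genes. Several chloroplast loci, such as ATCG00590, ATCG00040 and ATCG00470, had the same replicate number highest in all 10 groups. RLE size factors gave 2 falling Col-0 slopes and 5 lower slope differences, and DESeq2 gave 2 and 6. Times up to 60 min gave 13 and 2 Col-0 slopes, 0 rising rh6812 slopes and 1 slope difference. The 6 compared libraries alone gave 0 rising in rh6812. All libraries of replicate number 1 left out, a choice made after seeing the data, gave 0 rising in rh6812, rh6812 slopes 7 and 5, and 0 slope differences. Leaving out single replicates gave 23 to 44 rising in Col-0, 0 to 10 rising in rh6812, 2 to 4 falling Col-0 slopes, 1 to 16 rising rh6812 slopes and 1 to 9 lower slope differences. The cause was not tested for any of these. A filter on low counts left off and scaling from nuclear genes moved no such count by over 1.5 times.

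Single loci that changed sign did so mainly by scale. With library size alone the values were -0.05 (ATCG00430) and -0.11 (ATCG00440) for Col-0 slopes, 0.25 for ATCG00670 at 120 min, and 0.092 and 0.085 for ATCG00040 and ATCG00050 at 0 min. On the chloroplast scale they were 0.24 and 0.27 for ATCG00020 and 0.22 and 0.23 for ATCG00490 at 0 and 120 min, -0.10 and -0.16 for the Col-0 slopes of ATCG00430 and ATCG00440, 0.70 for ATCG00670 at 120 min, and 0.47 and 0.46 for ATCG00040 and ATCG00050 at 0 min, and 0.036 for SIGC (AT3G53920) at 0 min. ATCG00040 at 0 min ran from -0.236 to 0.095 over single replicates left out. Leaving out the second copies of repeated plastid genes was not run, since no source pairs the loci with names.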
